A study of Mus musculus with 2 samples.

Results

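The miRNAs described here are 10 mature mouse miRNAs, chosen as markers of intestinal epithelium and taken by their miRBase accessions from an array table of 739 rows. They are miR-192-5p (MIMAT0000517), miR-194-5p (MIMAT0000224) and miR-215-5p (MIMAT0000904). The miR-200 family adds miR-200a-3p (MIMAT0000519), miR-200b-3p (MIMAT0000233), miR-200c-3p (MIMAT0000657), miR-141-3p (MIMAT0000153) and miR-429-3p (MIMAT0001537). The last are miR-203-3p (MIMAT0000236) and miR-375-3p (MIMAT0000739). Each of the 10 accessions was found in 1 row. They were read in RNA of CD4+ T cells from 2 tissues, the intestinal lamina propria, which lies directly under the epithelium, and the spleen, which has no such epithelium.

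The lamina propria array held RNA from CD4+ T cells of female C57BL/6 mice aged 10 weeks with the genotype IL-10 +/-, and the spleen array held RNA from CD4+ T cells of mice of the same sex, strain, age and genotype. All cells therefore carried 1 working copy of the gene for interleukin 10, and no wild-type array was used here. Lamina propria lymphocytes were released with collagenase, and CD4+ cells of both tissues were purified on magnetic columns, so the tissue and the collagenase step cannot be told apart. There was 1 array per tissue, hence no replicate error, no test and no p-value. The sources used here do not say how many mice were pooled. In such bulk RNA, fewer cells of a type and less RNA per cell cannot be told apart.

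These miRNAs are known mainly from epithelia. In mice miR-192, miR-194 and miR-215 are abundant in intestinal epithelium, and transcription factors of the hepatocyte nuclear factor class drive them. The miR-200 family keeps cells epithelial by repressing ZEB1 and ZEB2, the transcription factors that silence E-cadherin. A miRNA finds its targets mainly through its seed, the bases 2 to 8 from its 5′ end, so members with the same seed share most predicted targets.

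The mature sequences of 9 of the 10 miRNAs were matched by name in RefSeq's table (GRCm38.p6) and are shown because some of the miRNAs share a seed and because near-identical sequences bear on what an array probe can tell apart. Capitals mark the seed, and all sequences run 5′ to 3′. The first pair shares the seed UGACCUA, and miR-194-5p has a seed of its own.
miR-192-5p: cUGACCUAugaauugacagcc
miR-215-5p: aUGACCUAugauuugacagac
miR-194-5p: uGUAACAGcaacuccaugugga
Within the miR-200 family, 3 members share the seed AAUACUG and 2 share AACACUG.
miR-200b-3p: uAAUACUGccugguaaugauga
miR-200c-3p: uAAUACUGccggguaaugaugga
miR-429-3p: uAAUACUGucugguaaugccgu
miR-200a-3p: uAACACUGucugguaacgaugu
miR-141-3p: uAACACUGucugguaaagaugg
The seed of miR-203-3p is shared with no other mature miRNA of that table.
miR-203-3p: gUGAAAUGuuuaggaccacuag

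Several of these sequences differ at few bases. Counting from 1 at the 5′ end, miR-192-5p and miR-215-5p are identical at 18 of 21 bases and differ by C1A, A12U and C20A. Over 22 bases, miR-200b-3p and miR-200c-3p differ by U11G and A22G, and miR-200a-3p and miR-141-3p differ by C17A and U22G. The sources used here give no probe sequences and do not say whether the probes tell these pairs apart, so the values within each pair are uncertain on that account.

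Apart from those of miR-203 and miR-375, the genes lie in short clusters, whose members are typically transcribed as 1 precursor. On chromosome 4 the hairpins of miR-200b (chr4:156055681-156055750), miR-200a (chr4:156054896-156054985) and miR-429 (chr4:156053905-156053987) lie on the minus strand within 1846 bases. Each of these hairpins overlaps the annotated lncRNA gene Gm13648. On chromosome 6 the hairpins of miR-200c (chr6:124718322-124718390) and miR-141 (chr6:124717914-124717985) lie 336 bases apart on the minus strand, with no other annotated gene over them. On chromosome 19 miR-194-2 (chr19:6264643-6264728) lies 115 bases from miR-192 (chr19:6264844-6264932). On chromosome 1 miR-194-1 (chr1:185313319-185313385) lies 195 bases from miR-215 (chr1:185313581-185313692), and both overlap the protein-coding gene Iars2. The same mature miR-194-5p comes from both loci, so its row does not separate them. The hairpin of miR-203 is at chr12:112130880-112130955, overlapped by the miRNA gene Gm51289, and that of miR-375 at chr1:74900658-74900721.

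The epithelial miRNAs had low deposited values or none: the listed ones lay between 4.41 and 8.31 intensity units in lamina propria and between 3.5 and 12.24 in spleen. The median listed value was 6.57 in lamina propria, exceeded by 1 of the 5 markers with a value there, and 4.995 in spleen, exceeded by 5 of 7. Among the 10, 5 had a value and 5 were blank in lamina propria CD4+ T cells, while 7 had a value and 3 were blank in spleen CD4+ T cells. The 3 blank in spleen were blank in lamina propria too, against 26.8% of all rows blank on both arrays. Over the whole table, 51.2% of rows had a value in lamina propria and 69.8% in spleen. On both arrays 5 of the 10 had a value, against 47.8% of all rows. Values in spleen alone were listed for 2 of the 10, against 22.1% of all rows, and in lamina propria alone for 0 of the 10, against 3.38%. The listed values of the 10 summed to 30.3 intensity units over 5 rows in lamina propria and to 43.9 over 7 rows in spleen, sums in which a blank adds nothing and which are therefore not set against each other. All rows of the arrays summed to 182481 units in lamina propria and 136232 in spleen, of which the brightest row held 92004 and 45487.

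**Figure D1:**
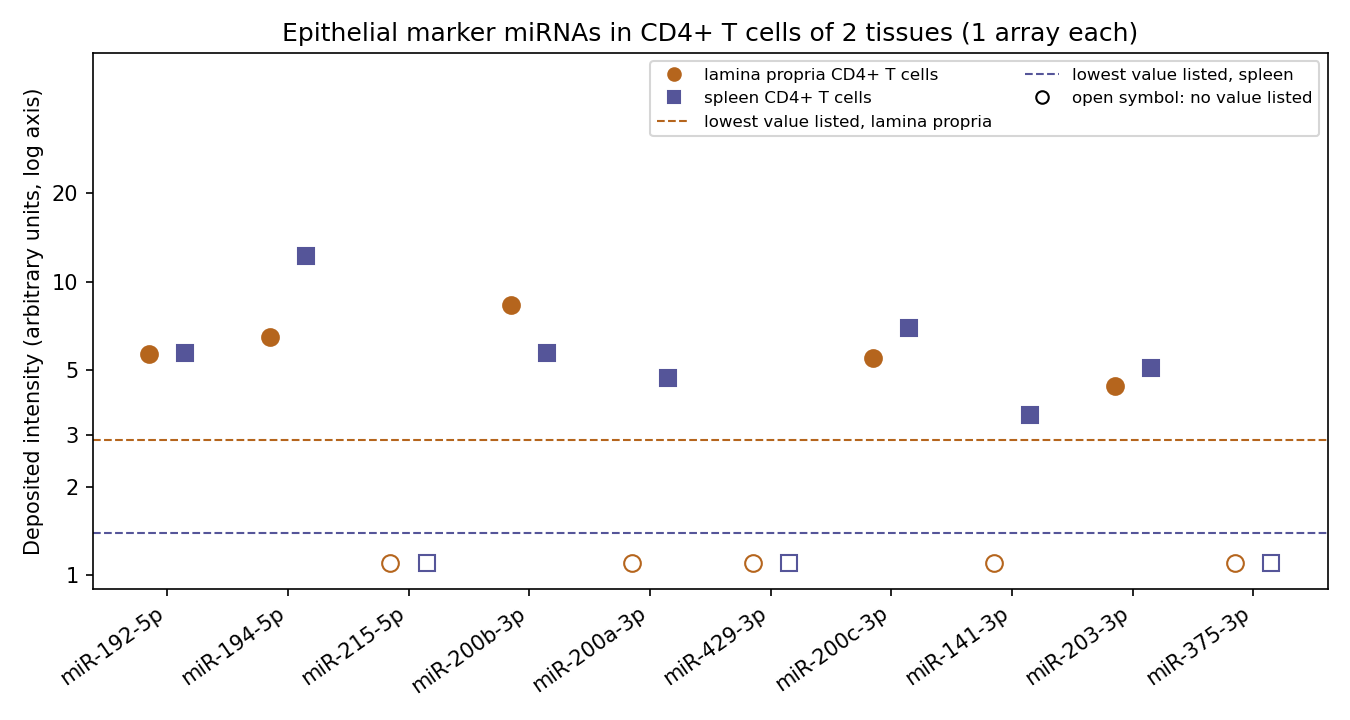
Deposited intensity (arbitrary units, log axis) of the 10 epithelial miRNAs in lamina propria CD4+ T cells (circles) and spleen CD4+ T cells (squares), 1 array each. Open symbols at the foot stand for rows with no value and have no level, and dashed lines mark the lowest value listed on each array (2.88 in lamina propria, 1.39 in spleen). The lamina propria values lie between 4.41 and 8.31.

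Of the group that is most abundant in intestinal epithelium, miR-192-5p had 5.65 units in lamina propria and 5.71 in spleen. That is a log2 ratio (lamina propria over spleen) of -0.02, so the tissues were within 0.06 units of each other. Its neighbour on chromosome 19, miR-194-5p, had 6.46 units in lamina propria and 12.24 in spleen. Its log2 ratio of -0.92 (1.89-fold lower in lamina propria) was the lowest of the 5 with a value in both tissues. Their relative miR-215-5p was blank on both arrays, so no direction could be given for it. The 2 rows with values summed to 12.1 units in lamina propria and 17.95 in spleen.

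In the miR-200 family, miR-200b-3p was the one row of the 10 with a higher deposited value in lamina propria. It had 8.31 units in lamina propria and 5.71 in spleen, a log2 ratio of 0.54 (1.46-fold higher in lamina propria). The other family member with a value in both tissues, miR-200c-3p, had 5.49 units in lamina propria and 6.97 in spleen, a log2 ratio of -0.34 (1.27-fold lower). The 2 lay on opposite sides of equality as deposited, but miR-200c-3p too was higher in lamina propria, by 0.08, 0.04 or 0.02 on the log2 scale, when the medians, 75th percentiles or totals without the 10 brightest rows of the arrays were set equal. Under these scalings the median log2 ratio of all rows listed on both arrays was 0.44, 0.39 and 0.38. For miR-200a-3p no value was listed in lamina propria, against 4.71 units in spleen. For miR-141-3p no value was listed in lamina propria, against 3.5 units in spleen. Were each blank a level below 2.88, the lowest lamina propria value, the lamina propria value would be at least 1.64-fold lower for miR-200a-3p and at least 1.22-fold lower for miR-141-3p. With the medians set equal that lowest value becomes 3.88, which leaves at least 1.22-fold for miR-200a-3p and no bound or direction for miR-141-3p, whose spleen value lies below it. The row of miR-429-3p was blank in both tissues.

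By seed, 2 of the 3 members with AAUACUG (miR-200b-3p and miR-200c-3p) had a value in both tissues and miR-429-3p in neither, and both members with AACACUG (miR-200a-3p and miR-141-3p) had a value in spleen alone. With 5 rows, and a lowest listed value 2.07 times higher in lamina propria than in spleen, no pattern was read from these listings. The 2 family rows listed on both arrays summed to 13.8 units in lamina propria and 12.7 in spleen as deposited. Probes differ in brightness at equal abundance, so the order of different miRNAs within 1 array was not read as an order of abundance.

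The last 2 markers are also known from outside the gut. In mice miR-203 is best known from skin, where it represses p63 as keratinocytes leave the stem cell state, and miR-375 from the endocrine cells of pancreatic islets. The row of miR-203-3p had 4.41 units in lamina propria and 5.06 in spleen, a log2 ratio of -0.20 (1.15-fold lower in lamina propria). The row of miR-375-3p was blank on both arrays.

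No epithelial miRNA with a value in both tissues differed 2-fold between them. Of the 5 with a value in both tissues, 0 were higher by 2-fold or more in lamina propria, against 16.1% of the 353 rows listed on both arrays, and 0 were lower by 2-fold or more, against 25.8% of those rows. With the medians of the shared rows set equal the shares of those rows were 30.3% higher and 19.8% lower, and the markers still numbered 0 and 0. All 5 lay within 2-fold, as did 58.1% of the shared rows, and with 5 members this count says little about them as a set. Their median log2 ratio was -0.20, between -0.92 and 0.54, against a median of 0.01 over all shared rows with quartiles of -1.06 and 0.72. Of the 5, 1 was higher and 4 were lower in lamina propria, against 178 higher and 175 lower of the 353 shared rows. Of the lower 50% of shared rows by mean log2 level, where 4 of the 5 lay, 17.0% were at least 2-fold higher and 10.2% at least 2-fold lower, with a median log2 ratio of 0.32. The row of miR-194-5p lay in the upper 50%, where 15.3% of rows were at least 2-fold higher, 41.2% at least 2-fold lower, and the median log2 ratio was -0.59.

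**Figure D2:**
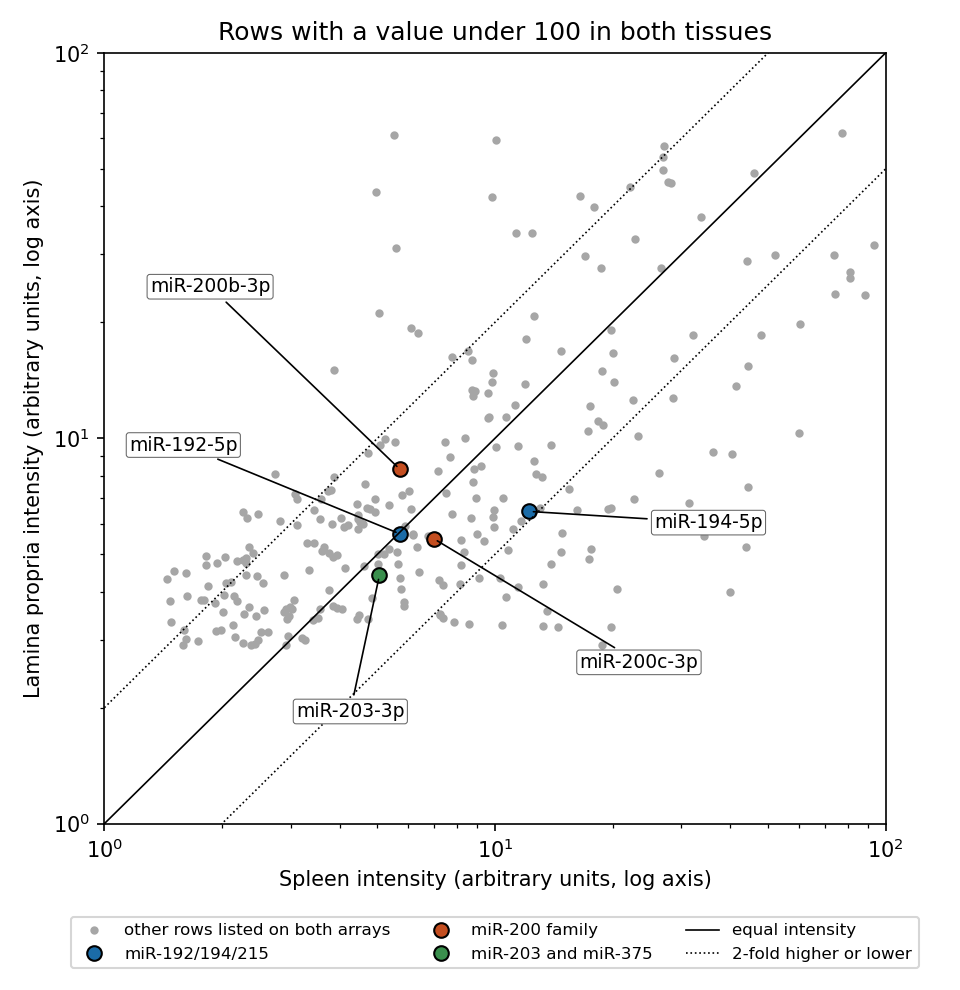
Lamina propria intensity (vertical) against spleen intensity (horizontal), both in arbitrary units on log axes, for the 277 of 353 shared rows with values under 100 on both arrays. Coloured points are the 5 epithelial miRNAs with a value in both tissues. All 5 lie between the dotted 2-fold lines, with miR-194-5p nearest to the lower one.

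The sign of the small differences depended on how the arrays were scaled. The deposited values were not at equal totals, the lamina propria sum being 1.34 times that of spleen. Setting these full totals equal was not among the settings tried. It would move every log2 ratio down and take miR-194-5p, at -0.92 as deposited, past 2-fold lower. The scalings by a constant that were tried moved every ratio up. When the medians of the shared rows were set equal, every log2 ratio moved up by 0.43. The ratios of miR-192-5p, miR-200c-3p and miR-203-3p then changed from negative to positive, at 0.41, 0.08 and 0.23, and the ratio of miR-200b-3p became 0.97, just short of 2-fold. The median log2 ratio of all shared rows moved with them to 0.44, above the ratios of miR-192-5p, miR-200c-3p and miR-203-3p and below that of miR-200b-3p. The row of miR-194-5p stayed lower in lamina propria under all 8 scalings, added constants and floors tried, between -0.92 and -0.43. The row of miR-200b-3p stayed higher under all 8, between 0.22 and 0.97. None of the 5 passed 2-fold under any of the 8. An added constant can only shrink a ratio, and leaving out spleen values under 2.88 changed none of the 5 ratios. Those settings could not have altered a sign or taken a ratio past 2-fold, so only the scalings between arrays bear on these counts.

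**Figure D3:**
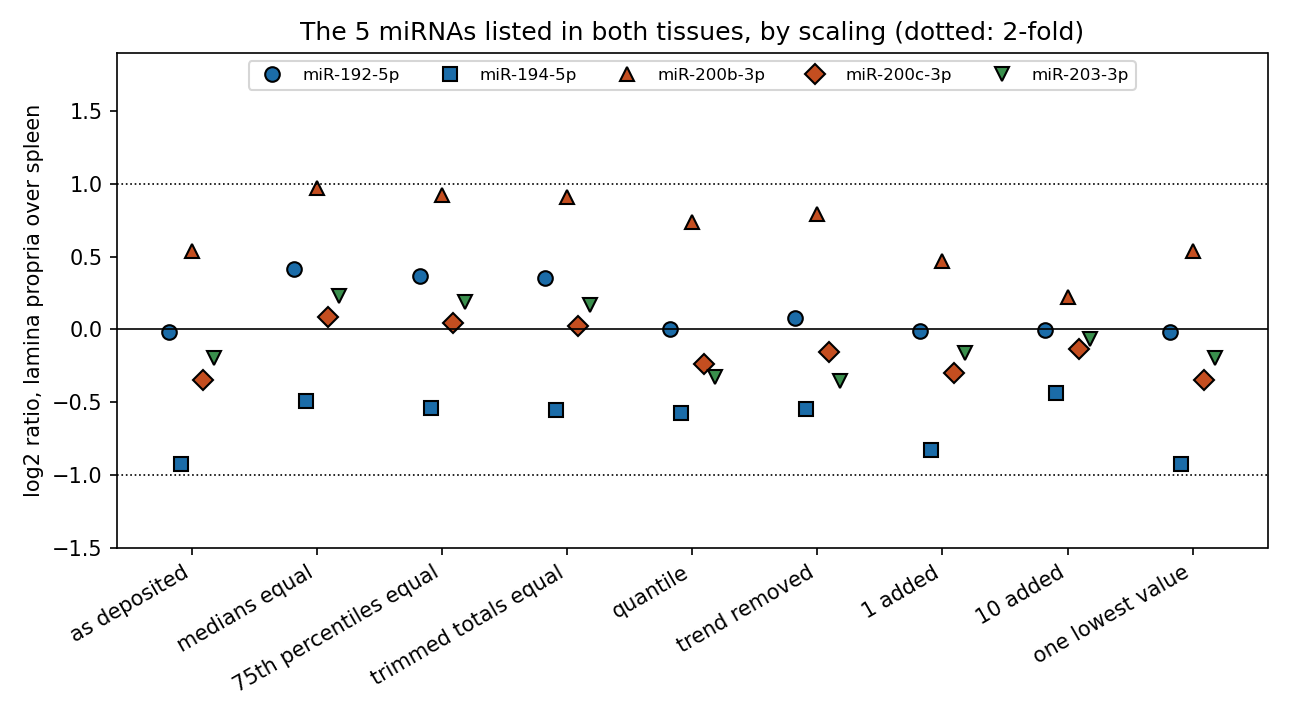
Log2 ratio (lamina propria over spleen) of the 5 epithelial miRNAs listed in both tissues, as deposited and under 8 other settings (scaling between arrays, a constant of 1 or 10 added, or spleen values under 2.88 left out). Points stand for single values without replicates, and dotted lines mark 2-fold. In each setting miR-200b-3p is the highest and miR-194-5p the lowest, and the other 3 lie on either side of 0 depending on the setting.

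Read as markers of epithelial RNA in the T cell preparations, 5 of the 10 rows were blank in lamina propria. Over the whole table, 51.2% of rows had a value there. The other 5 markers lay within 2.89 times of the lowest value listed there, 2.88 units. The median listed value, 6.57 units, was below the highest marker value, 8.31 units, so most listed rows lay in that range too. Of the 5 markers with a value, 3 (miR-192-5p, miR-200c-3p and miR-203-3p) were within 2 times of the lowest value of 2.88 units, as were 41.5% of all rows listed in lamina propria. The remaining 2 were at 2.24 times (miR-194-5p) and 2.89 times (miR-200b-3p) the lowest value. In spleen, where the lowest listed value was 1.39, the 7 markers with a value lay between 2.52 and 8.81 times the lowest, and 0 were within 2 times, against 31.4% of all listed rows. The lowest listed values of the arrays differed 2.07-fold, so these multiples are not comparable between the tissues. The summed intensity of the 5 markers listed on both arrays was 30.3 units in lamina propria and 35.7 in spleen. The lamina propria sum was thus 0.850 times that of spleen as deposited, and 1.14 times with the medians set equal, 1.11 times with the 75th percentiles set equal and 1.10 times with the totals without the 10 brightest rows set equal, so its direction also depended on the scaling. These scalings moved all rows alike, and the median log2 ratio of the rows listed on both arrays became 0.44, 0.39 and 0.38. The sources used here do not say what signal a given amount of epithelial RNA would produce on these arrays, so an amount too small to lift these rows was not detectable. Markers of T cells and of other cell types were not analysed here, because the tables used pair no other accession with a miRNA name.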

How the data were processed

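The authors deposited 1 table of linear intensity values (arbitrary units), with a column for each array and blanks where a row has no value. Per the labels' protocols, RNA was labelled with Hy5. The sources used here do not state the background subtraction, detection rule or scaling, and the number of arrays limits the precision. The 10 rows were named through their miRBase accessions; 0 accessions were found in the reference gene and miRNA tables, so the 5 other lists (34 miRNAs of lymphocytes, myeloid and erythroid cells, stroma, other epithelia and other organs) could not be applied. The members and lists were chosen with earlier results of these data known. The rule for naming took all 10 markers, their opposite arms and up to 4 rows per other list; only the 10 could be named, and no row was named for likeness, since 2 arrays define no pattern. Log2 ratios (lamina propria over spleen) were computed with no added constant, counted at 2-fold and set beside all rows listed on both arrays. The counting was tested on simulated data with known changes in rows listed on both arrays, so without blanks or a cut at a lowest value. That test therefore does not cover counts near the lowest listed values. Mature sequences and positions are RefSeq's (GRCm38.p6). Python 3.11.15, numpy 2.4.6, pandas 2.3.3, statsmodels 0.14.6 and matplotlib 3.10.9 were used.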

Additional observations from a re-analysis of the deposited data

How the results depend on the processing

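As deposited, the median log2 ratio of the 5 markers listed in both tissues was -0.20, and -0.21 relative to the median of all shared rows. The first changed sign with the medians (0.23), the 75th percentiles (0.19) or the totals without the 10 brightest rows (0.17) set equal, each of which adds 1 constant to every ratio and so left the relative value at -0.21. It was -0.24 after quantile normalization, -0.16 after removal of a lowess trend (fraction 0.5), -0.16 with 1 added, -0.064 with 10 added and -0.92 in the upper 50% by mean level, where miR-194-5p was the only marker. The relative value was -0.24 with quantiles set equal, -0.0695 without the trend, -0.17 with 1 added, -0.0666 with 10 added, -0.019 with spleen values under 2.88 left out, and 0.39 against the median of the upper 50%. The lower 50% by mean level, where 4 of the 5 markers lay, had a median log2 ratio of 0.32. Of those 4, miR-200b-3p (0.54) lay above it. The others, miR-192-5p (-0.02), miR-203-3p (-0.20) and miR-200c-3p (-0.34), lay below it. With the 75th percentiles equal, the log2 ratios of miR-192-5p, miR-200c-3p and miR-203-3p turned to 0.37, 0.0412 and 0.19, and with the trimmed totals equal to 0.35, 0.0235 and 0.17. With medians equal they were 0.41, 0.0843 and 0.23. The ratio of miR-192-5p also turned to 0.0026 after quantile normalization and 0.079 after trend removal. At 1.5-fold, 1 marker (miR-194-5p) was lower and 0 higher, against 34.6% and 29.7% of shared rows; at 4-fold both counts were 0, against 8.50% of shared rows lower and 2.27% higher. Scalings of the sum of the 5 shared markers and of the bounds were added after seeing the data. The sum (lamina propria over spleen) was 0.850 as deposited and turned to 1.14, 1.11 and 1.10 with medians, 75th percentiles and trimmed totals equal. The bound of miR-200a-3p became 1.22-fold, 1.25-fold and 1.27-fold lower under these 3, and miR-141-3p had none. All 7 spleen values were above 2.88. The cause of changes other than those by a constant was not tested. No paired analysis was possible because there is a single array for either tissue, which also leaves no replicate to drop. Opposite arms and the other lists were not run, since no other accession has a name here.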
